A study of Caenorhabditis elegans with 30 samples.

Results

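Libraries labelled M04C9.5 were set directly against libraries labelled R186.7, with no empty-vector library in the contrast. The members were found from the perturbation label: 3 libraries carry M04C9.5 (title numbers 5, 10 and 15) and 3 carry R186.7 (title numbers 2, 7 and 12), which makes 6 of the 30 libraries of the series. M04C9.5 is the sequence name of dyf-5 and R186.7 that of pnn-1. All 6 libraries are polyadenylated RNA of whole hermaphrodites of the wild-type Caenorhabditis elegans strain N2, aged 5 days. By label the groups differ in the RNAi target. They also differ in the L number that ends the sample descriptions, 1, 4 and 8 for M04C9.5 and 1, 2 and 6 for R186.7. What that number stands for is not stated. The 3 libraries labelled L4440_ZK here, from animals of the same strain, sex and age given the empty RNAi vector L4440, are shown beside both groups as a level and do not enter the contrast. Separate cultures are not stated for the 3 libraries that share a label, so the p-values measure the spread between these libraries, which may be technical.

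In Caenorhabditis elegans, DYF-5 is a MAP-kinase-related kinase of ciliated sensory neurons that acts on cilium length and on transport along the cilium. Pinin, the protein that pnn-1 is named for, is in mammals a nuclear protein associated with pre-mRNA splicing factors. RNAi by feeding acts through double-stranded RNA made in the bacterial food, and a whole worm mixes intestine, epidermis, muscle, neurons and germline in 1 RNA sample. In such bulk samples, fewer cells of a type and less RNA per cell cannot be told apart.

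The 6 libraries held between 36873983 and 43162369 gene counts. Levels are given as counts scaled to library size (CPM) after scaling for library composition. Differences are log2 fold changes, M04C9.5 minus R186.7, ± standard error with n = 3 libraries each, from edgeR's quasi-likelihood test. Each standard error is the absolute log2 fold change over the square root of that test's F statistic. It rests on a spread estimated over the 15 libraries fitted together. A gene is called higher or lower where the Benjamini-Hochberg adjusted p over the 16495 genes tested was under 0.05. The filter on low counts took in libraries of other RNAi targets. Shares over all genes therefore include genes hardly counted in these 6 libraries, in which alone 14342 genes passed. Markers of intestine, epidermis, muscle, pharynx, neurons, oocytes and germline were detected in both groups. Of 35 markers 4 were called higher, 5 lower and 26 not, among the last all 4 of each of the ciliated neuron, oocyte, germline and sperm classes. Over all genes tested, 7.57% were called higher and 9.41% lower, so the lack of a call among 4 markers does not set a class apart. Of 4 intestinal markers 2 fell, ges-1 by 0.50 ± 0.05 and cpr-6 by 0.40 ± 0.06 on the log2 scale. In the epidermis col-19 fell while dpy-7 and wrt-2 rose, in body muscle unc-15 fell by 0.37 ± 0.07, in the pharynx myo-1 and myo-2 rose, and among neuronal markers snb-1 fell by 0.16 ± 0.05. The wrt-2, snb-1, unc-15 and myo-2 calls were lost in the fit of all 30 libraries. They were also lost in a fit with the L number, described below, as a term. The dpy-7 call was lost in the fit of all 30 libraries. The wrt-2 call was also lost in DESeq2, the snb-1 call with library totals, and both in 4 of the 6 fits that leave out 1 library each. The 4 sperm markers averaged at most 0.743 CPM in the M04C9.5 libraries and at most 0.483 CPM in the R186.7 libraries. The first principal component took 45% of the variance and separated the groups, while the second took 15%.

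The target transcripts came first as a check of the labels. dyf-5 (WBGene00001121, protein coding, chromosome I, 9359067 to 9364238 on the plus strand, build WBcel235) had 6.04, 8.65 and 7.38 CPM in the libraries labelled M04C9.5, against 0.199, 0.364 and 0.534 CPM in the R186.7 libraries. L4440_ZK had 0.178, 0.27 and 0.357 CPM. The transcript of the named target was therefore high in the libraries that carry its name, by 4.31 ± 0.20 on the log2 scale (adjusted p = 3.61e-16), and every M04C9.5 library lay above every other library shown. The label goes against this value, so each direction below is tied to the label and not to a loss of dyf-5. The opposite-strand neighbour ppfr-1, a phosphatase regulatory subunit gene that overlaps dyf-5, differed by 0.11 ± 0.06 (adjusted p = 0.192). Strand is not marked by the library kit, and reads from genes that overlap on opposite strands cannot be told apart. Of the other genes described, hmg-6, srlf-34, ctsa-1.2, vit-2, fbn-1, ceh-10, ceh-16, adh-1, far-3, fat-5, spp-20, gpdh-1, cth-2, pck-2, hrg-7, sod-3, rsp-7, mec-8, F48E3.2, wrt-2 and osm-6 overlap a coding gene on the opposite strand. klp-11, gst-4 and F49E8.6 overlap one on the same strand, and all these values carry that doubt.

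pnn-1 (WBGene00011308, protein coding, chromosome V, 12971110 to 12973281 on the plus strand) had 114, 108 and 118 CPM in the libraries labelled M04C9.5, against 17.4, 17.4 and 24 CPM in the R186.7 libraries. L4440_ZK had 122.6, 114.7 and 115.3 CPM. The M04C9.5 libraries lay close to the empty vector and the R186.7 libraries below both, a difference of 2.52 ± 0.10 (adjusted p = 1.5e-11). shw-3, a potassium channel gene on the strand opposite pnn-1, differed by 0.41 ± 0.24 (adjusted p = 0.259).

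**Figure D1:**
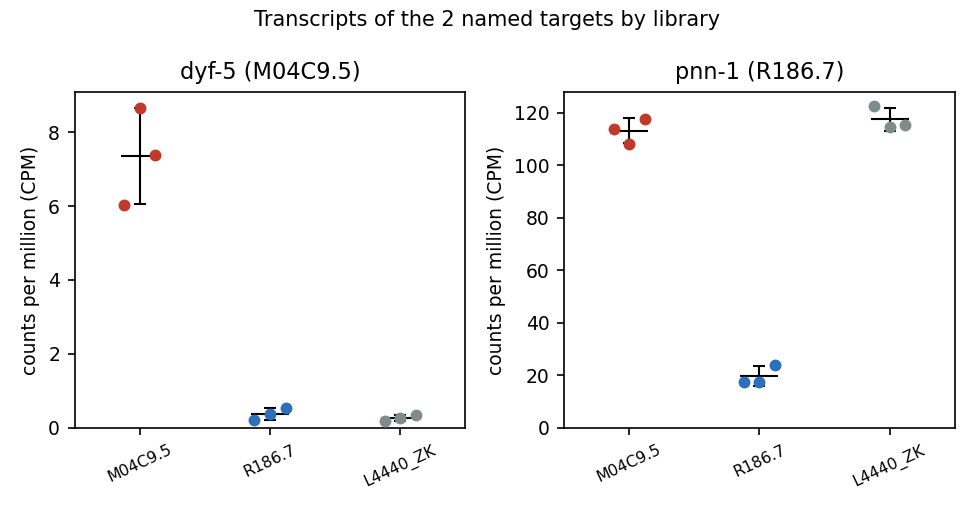
CPM of dyf-5 (left) and pnn-1 (right) on linear axes in the 3 libraries labelled M04C9.5, the 3 labelled R186.7 and the 3 L4440_ZK libraries, as points, with the mean (bar) and SD. The M04C9.5 libraries hold 6.04 to 8.65 CPM of dyf-5 and the R186.7 libraries at most 0.534 CPM, and pnn-1 is at 17.4 to 24 CPM in the R186.7 libraries, under all 6 others.

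Of the genes tested, 2802 differed (17%), of which 1249 were higher (7.57%) and 1553 lower (9.41%) in the libraries labelled M04C9.5. Only a small part of this was large: 233 genes were over 2-fold higher (1.41%) and 167 over 2-fold lower (1.01%). The levels of the groups did not overlap for 5759 genes (34.9%). With library totals alone in place of the scaling factors the split turned, with 1755 higher and 1236 lower, although the median log2 fold change over all genes moved by only 0.04, to 0.03 in place of -0.01. The sample descriptions end in an L number, and only number 1 holds a library of each group. That pair lay on the side of the call for 2793 of the 2802 genes, although it was itself part of the fit. With the L number as a term, 1072 genes were called (467 higher, 605 lower), all 2802 genes kept their direction and 1048 of them stayed called. That fit has fewer residual degrees of freedom. M04C9.5 replicate 2 is the only fitted library with L number 4, so it does not inform the contrast there. Lower power and the L number itself cannot be told apart where a call is lost in that fit.

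**Figure D2:**
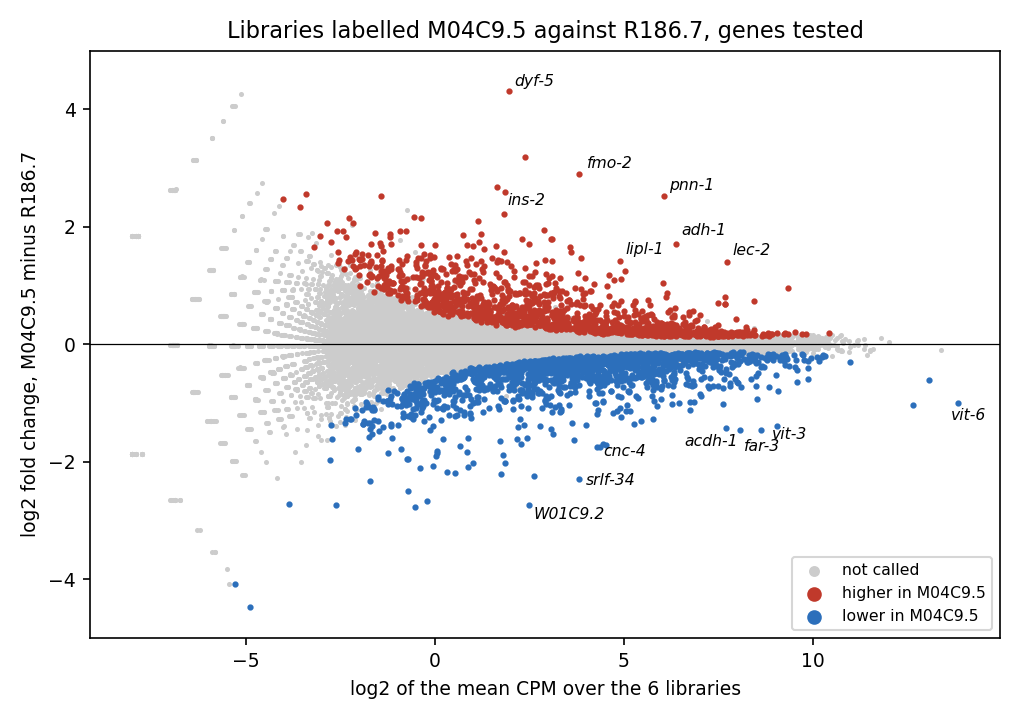
Log2 fold change of each gene tested, M04C9.5 minus R186.7, against the log2 of its mean CPM over the 6 libraries, with genes called higher in red, called lower in blue and others in grey (51 genes with no count in the 6 libraries cannot be drawn). dyf-5 stands highest of the called genes at 4.31, pnn-1 is at 2.52, and among abundant genes the yolk gene vit-6 lies at -0.99.

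For most of the called genes the libraries labelled M04C9.5, and not the R186.7 libraries, were also called against the empty vector. Set against L4440_ZK, in contrasts that share those 3 libraries, 3259 genes were called for M04C9.5 (19.8%), 1692 of them higher (10.3%) and 1567 lower (9.5%). For R186.7 the count was 421 (2.55%), with 307 higher (1.86%) and 114 lower (0.691%). Of the 2802 genes, 1798 (64.2%) were called against L4440_ZK for M04C9.5 alone, 182 for R186.7 alone, 77 for both and 745 for neither. The L4440_ZK mean was nearer to the R186.7 mean for 1034 of the 1249 genes higher in M04C9.5 and for 1253 of the 1553 lower ones. A call against the empty vector in 1 group and none in the other is not itself a difference, and the direct contrast above is the test of that.

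Among the genes with the largest rises after dyf-5 were F20G2.1, fmo-2, oac-32 and ins-2. F20G2.1, which the files give no function, had 9.7, 9.84 and 8.48 CPM in the M04C9.5 libraries, against 0.97, 1.12 and 0.998 CPM in the R186.7 libraries (3.18 ± 0.13, adjusted p = 5.96e-18). fmo-2, a flavin monooxygenase gene, had 25.4, 21.5 and 27.3 CPM, against 3.08, 3.73 and 3.18 CPM in the R186.7 libraries (2.90 ± 0.11, adjusted p = 4.44e-18). L4440_ZK held 1.22, 0.96 and 1.09 CPM of F20G2.1 and 2.22, 3.09 and 2.17 CPM of fmo-2. R186.7 minus L4440_ZK was -0.10 ± 0.18 for F20G2.1 (adjusted p = 0.839) and 0.43 ± 0.14 for fmo-2 (adjusted p = 0.104). oac-32, of the O-acyltransferase family, rose by 2.68 ± 0.17, and ins-2, an insulin-like peptide gene, by 2.22 ± 0.22. tbb-4, a beta-tubulin of ciliated neurons, had 10.5, 12.4 and 12.5 CPM in the M04C9.5 libraries, against 2.96, 3.28 and 2.95 CPM in the R186.7 libraries (1.95 ± 0.14, adjusted p = 3.71e-11). hmg-6, an HMG-box gene, was higher by 2.10 ± 0.21 and ugt-32, a glucuronosyltransferase gene, by 1.87 ± 0.19. Levels that do not overlap between the groups were part of the rule by which these genes were named.

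Among the remaining genes with the smallest p, lec-2, lipl-1 and aqp-2 rose. lec-2, a galectin gene, had 316, 288 and 311 CPM in the M04C9.5 libraries, against 109, 118 and 121 CPM in the R186.7 libraries (1.39 ± 0.05, adjusted p = 5.89e-18). lipl-1, of the lysosomal lipase family, had 45.7, 40.5 and 44.1 CPM, against 15.6, 16.1 and 16.8 CPM in the R186.7 libraries (1.42 ± 0.07, adjusted p = 3.61e-16). L4440_ZK was lower again for lipl-1, at 8.56, 8.28 and 9.54 CPM, so the groups were ordered M04C9.5, R186.7, empty vector. aqp-2, an aquaporin gene, rose by 1.18 ± 0.07. adh-1, an alcohol dehydrogenase gene chosen after its values were seen, had 150, 110 and 122 CPM, against 34.1, 41 and 41.7 CPM in the R186.7 libraries (1.71 ± 0.13, adjusted p = 9.75e-07).

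The largest falls were of genes at modest levels. W01C9.2, with no function in the files, had 2.3, 1.1 and 1.1 CPM in the M04C9.5 libraries, against 9.52, 9.36 and 10.7 CPM in the R186.7 libraries (-2.73 ± 0.19, adjusted p = 1.71e-09). Its L4440_ZK levels of 5.32, 5.58 and 5.83 CPM lay between the groups. srlf-34 had 5.02, 4.92 and 4.25 CPM, against 21.6, 22.3 and 25.7 CPM in the R186.7 libraries (-2.29 ± 0.19, adjusted p = 3.87e-06). ora-1 had 2.17, 2.24 and 2.08 CPM, against 9.15, 9.44 and 12 CPM in the R186.7 libraries (-2.24 ± 0.13, adjusted p = 4.55e-14). R186.7 minus L4440_ZK was -0.02 ± 0.17 for srlf-34 (adjusted p = 0.978) and 0.14 ± 0.10 for ora-1 (adjusted p = 0.563). amt-1, an ammonium transporter gene, fell by 2.08 ± 0.20 on the log2 scale and col-183, a cuticle collagen gene, by 2.02 ± 0.18. Among falls with a small p, D1086.3 had 21.6, 21.5 and 21.6 CPM, against 59.6, 53.8 and 52.8 CPM in the R186.7 libraries (-1.36 ± 0.07, adjusted p = 2.36e-15), and ctsa-1.2, a cathepsin A-like gene, fell by 1.01 ± 0.06.

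The yolk protein genes were lower as a whole family. Vitellogenins are made in the intestine of the adult hermaphrodite and taken up by oocytes, and 6 of 6 vit genes fell, with a median of -1.01, beside 9.41% of all genes called lower and a median of -0.01 over all genes tested. They took 2.18 ± 0.23% of all counts in the M04C9.5 libraries and 3.97 ± 0.18% in the R186.7 libraries, where L4440_ZK had 3.94 ± 0.14% (SD, n = 3 each). vit-6, the most abundant, had 10241, 8538 and 10800 CPM in the M04C9.5 libraries, against 20460, 20347 and 18006 CPM in the R186.7 libraries (-0.99 ± 0.11, adjusted p = 2.73e-06). vit-4 had 296, 271 and 318 CPM, against 810, 762 and 745 CPM in the R186.7 libraries (-1.39 ± 0.10, adjusted p = 1.85e-08). The other four fell by 1.46 ± 0.11 (vit-3), 1.03 ± 0.11 (vit-5), 0.73 ± 0.12 (vit-1) and 0.61 ± 0.10 (vit-2) on the log2 scale. Of the 3 M04C9.5 libraries, replicate 2 was the lowest for all 6 genes, and no library of either group overlapped the other. Near-identical vit genes share reads, so their single values are less certain than the sum. All 6 stayed called in each alternative run. The intestinal markers ges-1 and cpr-6 were lower as well, and their part in the yolk values was not tested.

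The genes for secreted antimicrobial peptides of the epidermis were lower too. The nlp and cnc peptides of this list are made in the epidermis and are known to be induced by fungal infection and wounding. Of 22 members, 17 passed the filter on low counts, with a median of -0.77. Of these 12 fell (70.6%, against 9.41% of all genes) while 0 rose. cnc-4 had 8.34, 10.1 and 8.63 CPM in the M04C9.5 libraries, against 29.1, 30.4 and 31.8 CPM in the R186.7 libraries (-1.75 ± 0.10, adjusted p = 2.93e-11). nlp-29 had 4.08, 4.94 and 4.66 CPM, against 13.6, 11.2 and 12.4 CPM in the R186.7 libraries (-1.44 ± 0.11, adjusted p = 3.08e-11). Both were at 32 to 32.7 and at 13 to 13.5 CPM in L4440_ZK, close to the R186.7 libraries. nlp-34 fell by 1.41 ± 0.11 and cnc-6 by 1.89 ± 0.15. cnc-10 at 0.08 ± 0.16, nlp-24 at 0.20 ± 0.18 and cnc-3 at -0.17 ± 0.11 did not pass the test.

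The fip and fipr genes, named as fungus-induced proteins and their relatives, had 12 of 36 members tested, with a median of -1.12. Of these 9 fell (75%, against 9.41% of all genes) and 0 rose. fip-6 had 1.7, 1.47 and 1.65 CPM in the M04C9.5 libraries, against 4.9, 5.27 and 4.92 CPM in the R186.7 libraries (-1.65 ± 0.13, adjusted p = 6.66e-11). fipr-26, the largest fall of the list, had 0.209, 0.187 and 0.3 CPM, against 1.32, 1.6 and 1.58 CPM in the R186.7 libraries (-2.68 ± 0.27, adjusted p = 7.74e-09). fipr-2 overlapped between the groups and had 0.07 ± 0.16 (adjusted p = 0.835). These short genes lie in families of similar copies, and the split of reads between copies is uncertain.

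**Figure D3:**
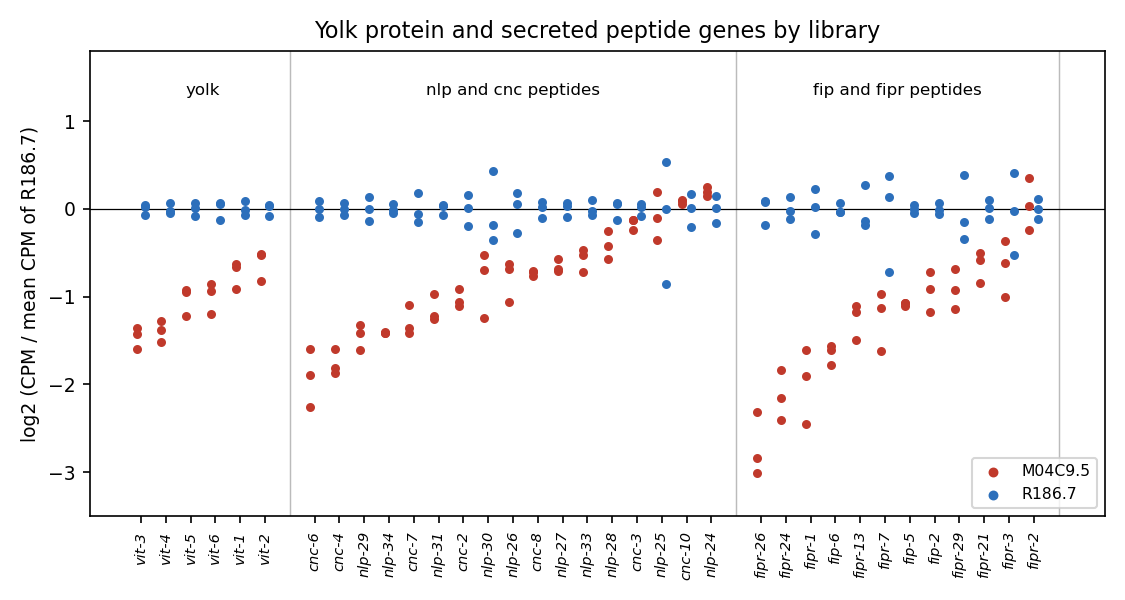
Log2 of the CPM of each library over the mean CPM of the R186.7 libraries, for the tested yolk protein genes (6), nlp and cnc peptide genes (17) and fip and fipr genes (12), with M04C9.5 libraries in red, left of the R186.7 libraries in blue. The red points lie under the blue ones for all 6 yolk genes, and cnc-10, nlp-24, nlp-25, fipr-2 and fipr-3 are where the groups overlap or the red points are higher.

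Cuticle collagen genes went in both directions. Collagens of the worm cuticle are made by the epidermis in bursts at each moult, and some are made in the adult. Of 110 tested col genes, 10 rose (9.09%, against 7.57% of all genes) and 27 fell (24.5%, against 9.41%), with a median of -0.13. col-19, an adult collagen, had 35.4, 33.2 and 33 CPM in the M04C9.5 libraries, against 42.3, 41.2 and 43 CPM in the R186.7 libraries (-0.32 ± 0.06, adjusted p = 0.000435). Of the 21 collagens named for a mutant body shape, 6 rose (28.6%) and 0 fell, with a median of 0.49. dpy-14 had 17.2, 20.7 and 17 CPM, against 6.19, 6.81 and 5.48 CPM in the R186.7 libraries (1.58 ± 0.15, adjusted p = 1.53e-06). dpy-7 was at a low level, with 1.36, 1.14 and 1.13 CPM, against 0.348, 0.56 and 0.511 CPM in the R186.7 libraries (1.35 ± 0.28). sqt-3 rose by 1.00 ± 0.13 and dpy-17 by 0.88 ± 0.10. In the fit of all 30 libraries 2 of the 21 were higher, and dpy-7, dpy-2 and sqt-3 were no longer called (adjusted p = 0.187, 0.107 and 0.0755).

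Families of the apical extracellular matrix, and the genes named with them here, were taken up after their values had been seen, so their counts are a description. Of 33 tested cuticlin and cuticlin-like genes, which encode zona-pellucida-domain matrix proteins, 12 rose (36.4%, against 7.57% of all genes) and 2 fell, with a median of 0.25 and 6 to 12 higher across the alternatives. cutl-16 had 12.6, 15.6 and 11.8 CPM, against 4.33, 3.61 and 3.62 CPM in the R186.7 libraries (1.79 ± 0.14, adjusted p = 1.71e-09). Of 7 lipocalin-related lpr genes 3 rose (42.9%), among them lpr-6 at 1.52 ± 0.25. fbn-1, a fibrillin-like matrix protein of the embryonic epidermis, had 18.1, 18.6 and 17.2 CPM, against 5.6, 5.91 and 5.57 CPM in the R186.7 libraries (1.66 ± 0.11, adjusted p = 3.08e-11). hch-1, an astacin protease needed for hatching, had 8.03, 9.35 and 8.28 CPM, against 2.56, 2.83 and 2.53 CPM in the R186.7 libraries (1.70 ± 0.12, adjusted p = 1.19e-11). The M04C9.5 libraries were the high ones for each of these, with no overlap.

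Single genes of embryonic development were named after their values were seen. All of those named rose, and they do not stand for their families. The ceh and T-box genes that fell are not named. mls-2, a homeobox gene of mesoderm and neuron development, had 10.9, 14 and 14.6 CPM in the M04C9.5 libraries, against 4.15, 4.31 and 3.02 CPM in the R186.7 libraries (1.79 ± 0.14, adjusted p = 1.73e-09). unc-39, a SIX-family homeobox gene, had 9.83, 12 and 11.1 CPM, against 4.8, 3.64 and 3.71 CPM in the R186.7 libraries (1.44 ± 0.11, adjusted p = 2.39e-11). L4440_ZK was at 2.4 to 3.18 CPM of mls-2 and 2.57 to 3.44 CPM of unc-39, so the R186.7 libraries were the nearer group. Of 48 tested ceh homeobox genes, 6 rose (12.5%, against 7.57% of all genes) and 4 fell (8.33%, against 9.41%), with a median of 0.04, and across the alternatives 4 to 8 rose and 0 to 5 fell. Those that rose included ceh-10 at 1.74 ± 0.28, the engrailed gene ceh-16 at 1.43 ± 0.15, the Distal-less gene ceh-43 at 1.11 ± 0.14 and the labial-type Hox gene ceh-13 at 0.86 ± 0.13. The POU gene unc-86 rose by 1.49 ± 0.20, and hlh-14, an achaete-scute-type gene, by 1.62 ± 0.17. hlh-14 was the called one of 13 tested hlh genes (7.69%, against 7.57% of all genes called higher). Of 15 tested T-box genes 4 rose (26.7%) and 1 fell (6.67%), and with the L number as a term all 5 calls were lost. unc-129, a TGF-beta-type ligand, had 18.5, 23.5 and 21.6 CPM, against 7.49, 8.74 and 6.89 CPM in the R186.7 libraries (1.47 ± 0.11, adjusted p = 1.2e-10), and fmi-1, a Flamingo-type cadherin, rose by 1.39 ± 0.12. Eggs and embryos inside the animals are part of a whole-worm sample, and their part in these rises was not tested. The summed oocyte, eggshell and early embryo list took 2.63 ± 0.04% of counts in the M04C9.5 libraries and 2.67 ± 0.06% in the R186.7 libraries (SD, n = 3 each). That list was not made to measure later embryos, whose share was not tested.

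Hedgehog-related and patched-related genes, which act in epidermis and moulting, had 7 of 64 tested members higher (10.9%, against 7.57% of all genes) and 13 lower (20.3%, against 9.41%). Across the alternatives 2 to 11 were higher and 6 to 13 lower, the lowest counts being those of the fit of all 30 libraries. wrt-10 rose by 1.20 ± 0.12 and grd-4 fell by 1.08 ± 0.14 on the log2 scale. Of 193 tested nuclear hormone receptor genes 12 rose (6.22%) and 5 fell (2.59%), shares under those of all genes, with 2 to 18 higher and 2 to 8 lower across the alternatives. nhr-25, a receptor needed for epidermal development and moulting, had 3.69, 4.38 and 3.5 CPM in the M04C9.5 libraries, against 2.14, 1.74 and 1.9 CPM in the R186.7 libraries (1.00 ± 0.13, adjusted p = 7.47e-07).

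Among genes of ciliated neurons, 12 of 70 tested members rose (17.1%, dyf-5 included, against 7.57% of all genes) and 2 fell, with a median of 0.14. Besides dyf-5 and tbb-4, dyf-7, which anchors sensory dendrites in the embryo, had 2.75, 2.57 and 2.93 CPM in the M04C9.5 libraries, against 0.796, 1.06 and 0.719 CPM in the R186.7 libraries (1.69 ± 0.16, adjusted p = 3.08e-09). klp-11, a kinesin-II motor subunit, rose by 0.66 ± 0.11 and dyf-1, an intraflagellar transport gene, by 0.69 ± 0.18. che-11, another transport gene, fell by 0.71 ± 0.20 on the log2 scale and daf-19, the factor that drives cilium genes, by 0.17. The che-11 call was lost without M04C9.5 replicate 3 or R186.7 replicate 1, and the daf-19 call in 5 of the 6 fits that leave out 1 library. The defining markers osm-6, che-2, osm-5 and bbs-8 were not called, at -0.19 ± 0.17, -0.21 ± 0.38, 0.79 ± 0.28 and 0.19 ± 0.29. osm-5 had 0.889, 0.536 and 0.601 CPM in the M04C9.5 libraries, against 0.497, 0.364 and 0.302 CPM in the R186.7 libraries, with no overlap (adjusted p = 0.0544), and it was called with library totals, in the fit of the 6 libraries compared and without M04C9.5 replicate 2 or R186.7 replicate 1. Across the alternatives 5 to 14 members rose.

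**Figure D4:**
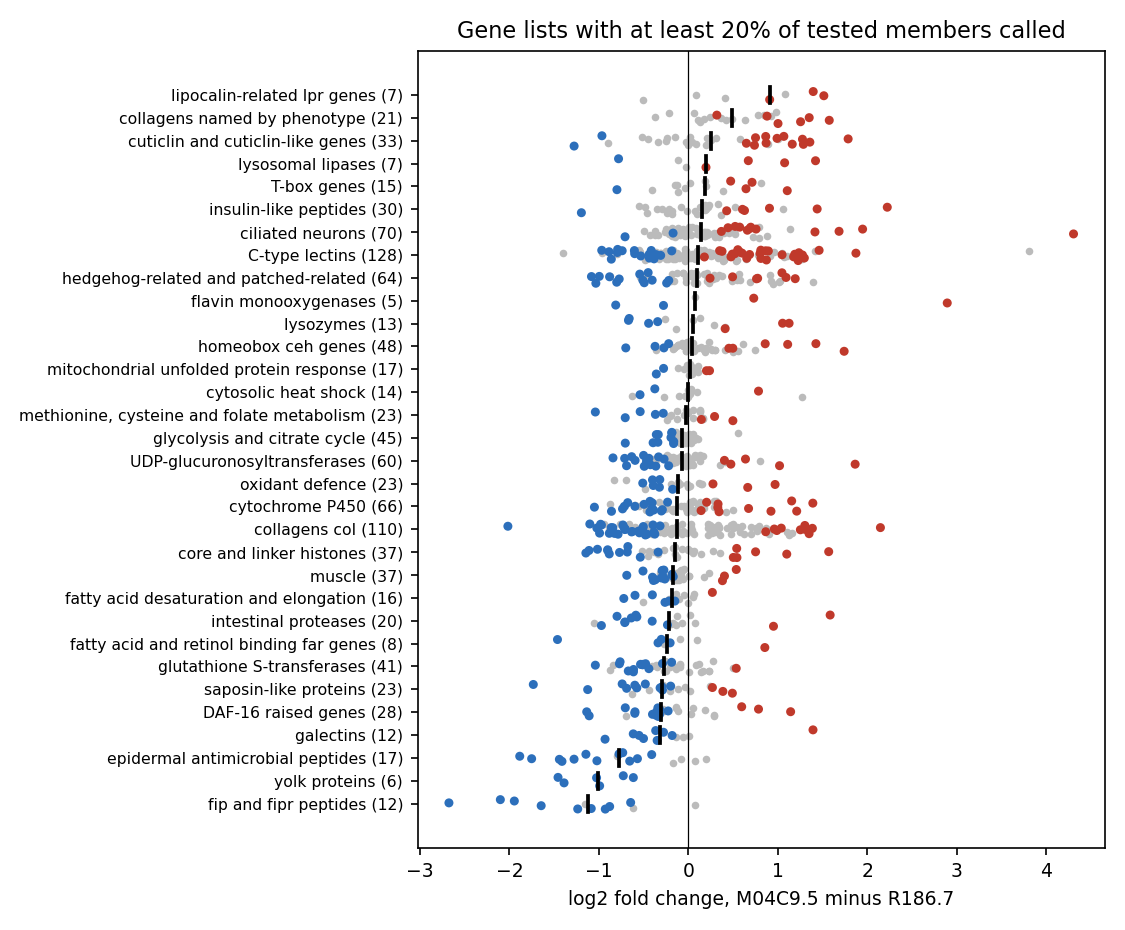
Log2 fold changes, M04C9.5 minus R186.7, of the tested members of the 32 lists with at least 5 tested and at least 20% called, ordered by the list median (black bar), with members called higher in red, called lower in blue and others in grey, and the number tested in brackets. The fip and fipr, yolk and antimicrobial peptide lists lie lowest, at medians of -1.12, -1.01 and -0.77, and the lpr list and the collagens named by phenotype lie highest, at 0.91 and 0.49.

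Neuropeptide genes had 6 of 85 members higher (7.06%, against 7.57% of all genes) and 1 lower (1.18%, against 9.41%), and nlp-59 rose by 0.75 ± 0.12. Of 30 tested insulin-like peptide genes, which act on the DAF-2 receptor, 6 rose (20%) and 1 fell (3.33%), with 2 to 6 higher across the alternatives. ins-2 had 4.92, 6.32 and 6.23 CPM in the M04C9.5 libraries, against 1.57, 1.2 and 0.975 CPM in the R186.7 libraries (adjusted p = 2.14e-07). ins-29 fell, with 0.392, 0.42 and 0.35 CPM, against 1.04, 0.981 and 0.673 CPM in the R186.7 libraries (-1.20 ± 0.25, adjusted p = 0.000714).

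Genes known to be raised by DAF-16, the FOXO factor under insulin signalling, had a median of -0.30. Of 28 members 14 were lower (50%, against 9.41% of all genes) and 3 higher (10.7%, against 7.57%). ftn-1, a ferritin gene, had 18.3, 16.2 and 18.6 CPM in the M04C9.5 libraries, against 42.8, 36.8 and 36.9 CPM in the R186.7 libraries (-1.14 ± 0.09, adjusted p = 3.69e-09). gpdh-1, a glycerol phosphate dehydrogenase gene, fell by 1.11 ± 0.10 and icl-1, of the glyoxylate cycle, by 0.70 ± 0.05. sod-3, the mitochondrial superoxide dismutase often used to report DAF-16, fell by 0.40 ± 0.12, a call that was lost in DESeq2, in the fit of all 30 libraries, with the L number as a term and without replicate 2 or 3 of M04C9.5 or replicate 1 or 3 of R186.7. The members that rose were thn-1, a thaumatin-like gene, at 1.14 ± 0.12, the small heat shock gene hsp-12.6 at 0.78 ± 0.18 and the metallothionein mtl-2 at 0.60 ± 0.14. Both tested pud genes, a family taken up after its values were seen and named for proteins raised in daf-2 mutants, fell, pud-3 by 1.72 ± 0.26 and pud-4 by 1.69 ± 0.23.

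Several families of enzymes that modify foreign and oxidised compounds had more members lower than higher. Of all genes tested, 7.57% were called higher and 9.41% lower. Of 41 tested glutathione S-transferase genes 14 fell (34.1%) and 1 rose (2.44%), with a median of -0.27. gst-4, a common reporter of oxidative stress, had 6.12, 6.11 and 7.06 CPM in the M04C9.5 libraries, against 13.2, 11.5 and 14.9 CPM in the R186.7 libraries (-1.04 ± 0.09, adjusted p = 3.02e-10). Of 60 tested glucuronosyltransferase genes 15 fell (25%) and 5 rose (8.33%). However, 5 fell in the fit of all 30 libraries and 5 with the L number as a term. Of 66 tested cytochrome P450 genes 15 fell (22.7%) and 10 rose (15.2%). Of the 5 flavin monooxygenases, fmo-2 and fmo-1 rose (fmo-1 by 0.73), while fmo-3 and fmo-4 fell by 0.81 and 0.28. The fmo-1 call was lost without R186.7 replicate 1 and the fmo-4 call without M04C9.5 replicate 1, and both in the fit of all 30 libraries and with the L number as a term. Of 23 oxidant defence genes 6 fell (26.1%) and 3 rose (13%), among them the glutathione peroxidase gene gpx-3 at 0.97 ± 0.16. With the L number as a term 0 fell.

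Intestinal digestive and defence proteins were mixed, and are set beside 7.57% of all genes called higher and 9.41% called lower. Of 23 tested saposin-like genes, which encode lipid-binding and antibacterial proteins, 11 fell (47.8%) and 3 rose (13%), and spp-20 fell by 1.73 ± 0.21. Of 20 tested intestinal proteases 9 fell (45%) and 2 rose (10%). asp-17, an aspartyl protease gene, had 32.4, 38.6 and 41.8 CPM in the M04C9.5 libraries, against 76, 79.6 and 66.1 CPM in the R186.7 libraries (-0.97 ± 0.09, adjusted p = 9.91e-08), and cpr-2, a cathepsin B-like gene, rose by 1.59 ± 0.33 at under 1 CPM. The intestinal markers ges-1, an esterase gene, and cpr-6, a cathepsin B-like gene, fell, as given above, cpr-6 to 838, 792 and 765 CPM in the M04C9.5 libraries, against 1043, 1043 and 1084 CPM in the R186.7 libraries (adjusted p = 3.82e-06), whereas the intestinal factor elt-2 was not called, at 8.21 CPM in the M04C9.5 libraries and 9.47 CPM in the R186.7 libraries (adjusted p = 0.107). Of 13 tested lysozymes, enzymes that cut bacterial walls, 3 rose (23.1%) and 4 fell (30.8%). lys-2, an abundant one, fell by 0.66 ± 0.08 and ilys-3 rose by 1.13 ± 0.22. C-type lectins had 26 of 128 tested members higher (20.3%) and 16 lower (12.5%), with clec-60 at 1.46 ± 0.23. Among 12 galectins, a family taken up after its values were seen, 8 fell (66.7%) and lec-2 alone rose (8.33%). lec-6 had 264, 239 and 256 CPM, against 498, 459 and 491 CPM in the R186.7 libraries (-0.93 ± 0.06, adjusted p = 1.63e-12). Of 25 pals genes 0 rose and 1 fell (4%). The F-box genes fbxa, fbxb and fbxc were also added after their values were seen. Of 262 tested, 35 were higher (13.4%) and 15 lower (5.73%).

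Lipid genes went in both directions. Of 7 tested lysosomal lipases 4 rose (57.1%, against 7.57% of all genes), lipl-1 most, and lipl-4 fell by 0.78 ± 0.20, a call that was lost with the L number as a term and without R186.7 replicate 1. Of 16 desaturase and elongase genes 6 fell (37.5%, against 9.41% of all genes) and 1 rose, with 2 to 7 lower across the alternatives. fat-7, a stearoyl-CoA desaturase gene, had 45.3, 43.7 and 44.3 CPM in the M04C9.5 libraries, against 74, 70.8 and 74.9 CPM in the R186.7 libraries (-0.72 ± 0.06, adjusted p = 5.85e-11), and fat-5 fell by 0.60 ± 0.06. Of 40 fatty acid oxidation genes 6 fell (15%) and 1 rose (2.5%), with 2 to 7 lower across the alternatives. acdh-1, a short-chain acyl-CoA dehydrogenase gene, had 114, 105 and 116 CPM, against 277, 267 and 357 CPM in the R186.7 libraries (-1.43 ± 0.10, adjusted p = 9.58e-08), with R186.7 replicate 3 the highest library. Of 8 fatty acid and retinol binding far genes, added after their values were seen, 4 fell (50%) and 1 rose (12.5%). far-3 had 132, 154 and 145 CPM, against 453, 362 and 373 CPM in the R186.7 libraries (-1.46 ± 0.13, adjusted p = 3.46e-06). hmit-1.1, an inositol transporter gene, lbp-8, a lipid-binding chaperone gene, and hrg-7, a protease homologue of haem balance, were named after their values were seen and fell by 1.69 ± 0.13, 1.62 ± 0.14 and 1.27 ± 0.09.

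Genes of glycolysis and the citrate cycle had 10 of 45 members lower (22.2%, against 9.41% of all genes) and 0 higher. Their median was -0.07, and the sizes were small. pck-2, a phosphoenolpyruvate carboxykinase gene, had 646, 631 and 626 CPM in the M04C9.5 libraries, against 828, 843 and 828 CPM in the R186.7 libraries (-0.39 ± 0.05, adjusted p = 3.83e-07). In methionine, cysteine and folate metabolism 5 of 23 genes fell (21.7%) and 3 rose (13%, against 7.57% of all genes). The paralogues cth-1 and cth-2, for cystathionine gamma-lyases, differed in opposite directions: cth-2 fell by 0.71 ± 0.05 and cth-1 rose by 0.50 ± 0.05.

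Muscle genes were lower in part, with a median of -0.17. Of 37 members 14 were lower (37.8%, against 9.41% of all genes) and 3 higher (8.11%, against 7.57%). tnt-2, a troponin T gene, had 25.8, 29 and 28.9 CPM in the M04C9.5 libraries, against 45.4, 41.5 and 47.8 CPM in the R186.7 libraries (-0.69 ± 0.07, adjusted p = 2.67e-09). The pharyngeal myosins rose, myo-1 by 0.54 ± 0.09 and myo-2 by 0.38, the second of which lost its call in both of the fits named next. The count of lower members was 1 in the fit of all 30 libraries and 4 with the L number as a term, so most of these calls rest on the fit used.

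Of 43 germline proliferation and meiosis genes 3 rose (6.98%, against 7.57% of all genes) and 0 fell, of 34 oocyte and early embryo genes 0 rose and 4 fell (11.8%, against 9.41%), by at most 0.23, and of 15 sex determination genes 2 rose (13.3%) and 0 fell. For the 30 tested major sperm protein genes edgeR called 0 in either direction, at 5.07, 4.39 and 18.0 CPM summed over the list in the M04C9.5 libraries, against 3.95, 5.53 and 5.35 CPM in the R186.7 libraries, relative to library totals. M04C9.5 replicate 3 was the high library there. At these low levels the list median was 0.66, with 23 genes positive and 6 negative. At an unadjusted p under 0.05 there was 1 such gene, and DESeq2 called 1. Of 35 other sperm genes 1 fell (2.86%), ssp-10, by 0.56 ± 0.13. Of 79 cytosolic ribosomal protein genes 4 rose (5.06%) and 1 fell (1.27%), shares under those of all genes. However, 70 of the 79 had a positive log2 fold change, with a median of 0.08, beside 48.8% of all genes tested. They took 6.74 ± 0.21% of all counts in the M04C9.5 libraries and 6.19 ± 0.31% in the R186.7 libraries (SD, n = 3 each). Across the alternatives 0 to 28 were called higher. The gene listed as rpl-42 was the one called lower, at no more than 0.162 CPM in any of the 6 libraries, and its call was lost without M04C9.5 replicate 1 or R186.7 replicate 3. Of 65 mitochondrial ribosomal protein genes 7 rose (10.8%), by at most 0.28, and 0 fell, with 1 to 15 higher across the alternatives. A positive log2 fold change was seen for 53 of them, called or not, with a median of 0.07. Of 33 proteasome genes 1 fell (3.03%).

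The remaining stress lists differed in their counts of calls. Of 18 endoplasmic reticulum stress genes and of 40 autophagy and vacuolar ATPase genes edgeR called 0, with 3 of each list at an unadjusted p under 0.05, and DESeq2 called 0 of the first and 1 of the second. Of 14 cytosolic heat shock genes 1 rose and 2 fell (21.4% called, against 17% of all genes), with hsp-43 at -0.54 ± 0.06. Of 17 genes of the mitochondrial unfolded protein response 2 rose and 2 fell (23.5% called), and with the L number as a term none of these 4 kept its call. lonp-1, a mitochondrial protease gene, had 168, 162 and 162 CPM in the M04C9.5 libraries, against 133, 137 and 147 CPM in the R186.7 libraries (0.24 ± 0.05, adjusted p = 0.000902).

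The 182 genes called in the direct contrast and against L4440_ZK for R186.7 alone include histone genes. They made up 9 of these 182 (4.95%) and 37 of the 16495 genes tested (0.224%), shares compared once their values were known. Histone mRNAs of dividing cells mostly lack the poly(A) tail that the library kit selects, and histone copies share reads. Of 37 tested of 80 histone genes, 11 fell (29.7%, against 9.41% of all genes) and 6 rose (16.2%, against 7.57%). Against L4440_ZK the same list had 9 members higher for M04C9.5 and 11 higher for R186.7, in contrasts that share the empty-vector libraries. The 11 that fell were all among 29 tested his genes, and 9 of them were called against L4440_ZK for R186.7 alone, and his-38 and his-40 for M04C9.5 alone. his-59 had 6.25, 6.67 and 6.13 CPM in the M04C9.5 libraries, against 12.8, 14.3 and 14.1 CPM in the R186.7 libraries (-1.11 ± 0.09, adjusted p = 2.1e-10), with 6.67, 5.04 and 6.83 CPM in L4440_ZK. his-67 had 4.32, 3.68 and 4.56 CPM, against 8.01, 7.37 and 8.01 CPM in the R186.7 libraries (-0.90 ± 0.11, adjusted p = 1.07e-07). his-63, his-61 and his-68 fell by 1.15 ± 0.16, 0.68 ± 0.09 and 0.54 ± 0.07. For these genes the R186.7 libraries were the high group. Of 8 tested hil genes, which encode linker histones, 4 rose and 0 fell, all 4 called against L4440_ZK for M04C9.5 alone. hil-2 and hil-6 rose by 0.54 ± 0.12 and 0.54 ± 0.13, calls that were lost with the L number as a term, hil-3 averaged 36.7 CPM in the M04C9.5 libraries and 17.1 CPM in the R186.7 libraries (adjusted p = 0.000169), and the linker histone gene his-24 rose by 0.75 ± 0.15. hil-7 had 5.28, 5.43 and 5.16 CPM, against 1.67, 2.3 and 1.44 CPM in the R186.7 libraries (1.57 ± 0.13, adjusted p = 1.32e-10), and L4440_ZK was at 1.12 to 1.44 CPM.

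Other genes with the R186.7 libraries apart were named after their values were seen. tiam-1, a Rac exchange factor gene, had 5.65, 6.27 and 5.41 CPM in the M04C9.5 libraries, against 2.31, 2.13 and 2.39 CPM in the R186.7 libraries (1.34 ± 0.12, adjusted p = 1.07e-09), and L4440_ZK had 6.22, 5.85 and 5.16 CPM. F49E8.6 had 3.92, 3.75 and 3.68 CPM, against 9.82, 9.86 and 10 CPM in the R186.7 libraries (-1.39 ± 0.11, adjusted p = 2.81e-11), and L4440_ZK had 4.48, 3.84 and 3.95 CPM. B0238.15 differed by -1.83 ± 0.19 in the same way. F08G2.5 had 8.55, 10.5 and 8.96 CPM, against 30.4, 34.2 and 30.3 CPM in the R186.7 libraries (-1.75 ± 0.12, adjusted p = 5.79e-09), with the empty vector between the groups at 13.3, 15 and 11.9 CPM.

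Because pinin belongs with splicing factors, the splicing list was read apart. Of 65 members 6 were higher in the M04C9.5 libraries, pnn-1 included, and 0 lower (9.2% against 7.57% of all genes). rsp-7, an SR protein gene, had 94.6, 95.3 and 89.6 CPM in the M04C9.5 libraries, against 64.2, 67.1 and 70.1 CPM in the R186.7 libraries (0.47 ± 0.06, adjusted p = 1.07e-07). L4440_ZK had 84.2, 85 and 87 CPM, so the R186.7 libraries were the low group. unc-75, a CELF-type splicing regulator of neurons, rose by 1.42 ± 0.22 with R186.7 minus L4440_ZK at -0.13 (adjusted p = 0.865), and mec-8 rose by 0.22 ± 0.06. Among 51 small RNA pathway genes 6 were higher (11.8%, against 7.57% of all genes) and 3 lower (5.88%, against 9.41%). rde-8, an RNAi nuclease gene, had 118, 114 and 118 CPM, against 97.7, 91.4 and 92.3 CPM in the R186.7 libraries (0.31 ± 0.05, adjusted p = 9.02e-06), with 117, 119 and 114 CPM in L4440_ZK.

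**Figure D5:**
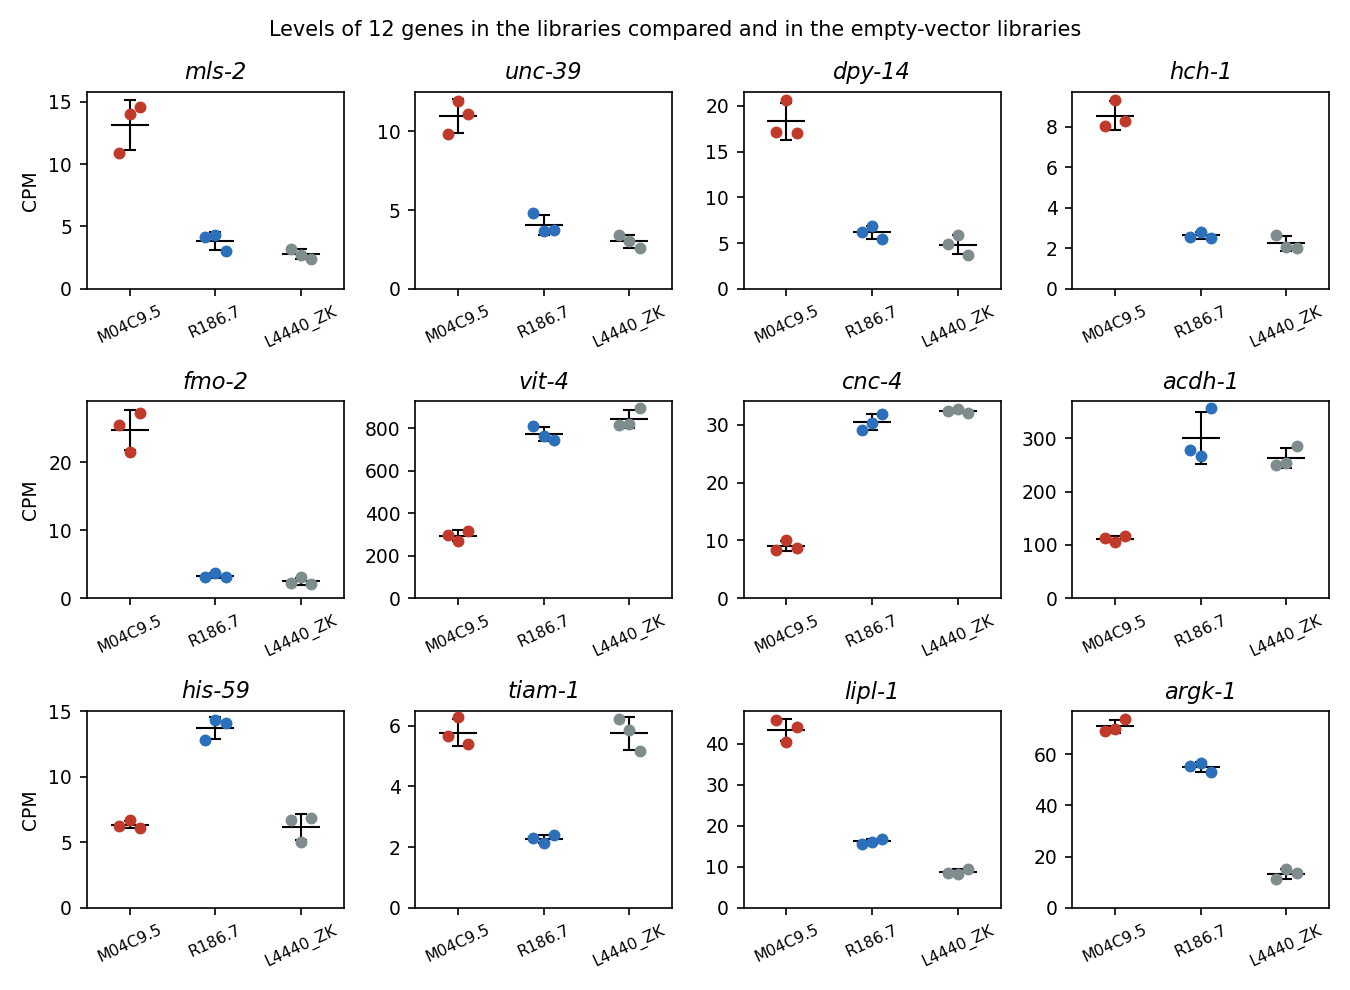
CPM of 12 genes on linear axes from 0 in the libraries labelled M04C9.5, R186.7 and L4440_ZK (points, 3 each, with mean and SD). In the first 8 panels the M04C9.5 libraries stand apart from both other groups, in his-59 and tiam-1 the R186.7 libraries do, lipl-1 is stepped over all 3 groups, and argk-1 is high in both RNAi groups (69.2 to 73.7 CPM in M04C9.5, 53 to 56.6 CPM in R186.7).

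A few genes were far from the empty vector in both groups. In the direct contrast the groups were close for str-7, cyp-35B1 and H20E11.2, while argk-1 was called higher in M04C9.5. str-7, a chemoreceptor gene, had 13.3, 13.9 and 14.4 CPM in the M04C9.5 libraries, against 14, 14.9 and 14.5 CPM in the R186.7 libraries (-0.06 ± 0.08, adjusted p = 0.669), with 3.62, 3.87 and 3.74 CPM in L4440_ZK. cyp-35B1, a cytochrome P450 gene, differed by 0.01 ± 0.09 and H20E11.2 by -0.01 ± 0.13. argk-1, an arginine kinase gene, had 69.2, 69.7 and 73.7 CPM, against 55.4, 56.6 and 53 CPM in the R186.7 libraries (0.37 ± 0.07, adjusted p = 0.000372), with 11.1, 15.1 and 13.6 CPM in L4440_ZK. In the fit of all 30 libraries argk-1, cth-1, clec-258 and F48E3.2 were no longer called.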

How the data were processed

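The authors deposited raw counts of reads per gene, which were used as deposited. A table of RPKM was also deposited and was not used. Per the submitters' processing notes, bcl2fastq 1.8.4, STAR 2.4.1d and featureCounts 1.4.6-p4 were used with build WBcel235. Per the labels, the kit was TruSeq RNA v2. Gene names and coordinates came from Ensembl release 115, which held 46449 of the 46748 genes of the table.

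In R 4.3.3 with edgeR 4.0.16, low counts were removed with filterByExpr, TMM scaling factors computed, and a robust quasi-likelihood model with 5 group means fitted to the 15 libraries of the ZK title prefix (16495 genes, 10 residual degrees of freedom). These share 1 estimate of the spread (biological coefficient of variation 5.42%), and the contrast has no weight on L4440_ZK. The fit was also run on counts simulated from its own means and spread, with no effect of the L number. That run cannot speak to the L number or to how the replicates were made. Replicates of a group differed by more than counting noise, so none was counted as a duplicate.

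The members, the 43 gene lists and the rules were chosen with earlier results of these data known, and 9 families were added once values were known. Genes were named by rule: both targets, the 12 largest rises and falls among called genes whose groups did not overlap at a mean of at least 1 CPM, the 6 smallest p among the rest, and up to 5 members of lists with at least 3 calls. Further genes and list members named beside these were chosen after their values were seen. Alternatives were other scalings, no filter, DESeq2 1.42.0, other sets of libraries, the L number and leaving out each replicate. Lists had no test of their own.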

Additional observations from a re-analysis of the deposited data

How the results depend on the processing

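dyf-5 and pnn-1 kept their direction and stayed called in every alternative run. The count of 2802 genes was 1692 (797 higher, 895 lower) in the fit of all 30 libraries and 1072 (467 higher, 605 lower) with the L number as a term, where genes over 2-fold lower numbered 105 in place of 167. The cause was not tested. Leaving out 1 library at a time gave 2009 to 2344 calls, 861 to 1039 higher and 1148 to 1326 lower. Relative log expression factors gave 2788, library totals 2991, no filter 2761, DESeq2 2469 and the ZK libraries without C01A2.5 2956. The 6 libraries compared gave 3499, of 14342 genes tested in that fit. Of 273 genes followed, 198 kept their side of the threshold in every alternative, 75 did not, and 0 reversed, and 56 lost their call with the L number and 43 in the fit of all 30 libraries. No paired analysis was possible because the labels give the groups no shared replicate number: title numbers do not repeat, and replicate numbers follow accession order only. The L number, the one label that groups libraries across the conditions, was used as a term instead. Counts limit the precision of genes under about 1 CPM most. No interval that rests on counts alone is given here, and the ± values include the spread between libraries.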
